A study of Mus musculus with 24 samples.

Results

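A set of 46 transcripts, of 21960 in the deposited count table, was more abundant in mouse limb buds that had lost one functional copy of Rps6, both as RNA and as ribosome footprints, and it differed little with Rps6 when p53 was missing. They were chosen by their values. For each transcript the mean level of a genotype was taken as CPM (counts scaled to a common library total), 0.5 was added, and log2 ratios were formed. A transcript was taken if Rps6 het over Rps6 WT with Trp53 intact was at least 0.7 in RNA and in footprints, and if the same ratio without Trp53 lay within 0.4 of 0 in both. Its RNA ratio of Trp53 null over Trp53 WT, with Rps6 intact, also had to be above −0.3, and its mean in Rps6 het, Trp53 WT had to reach 5 CPM in RNA and 2 CPM in footprints. The rule left out 2 further transcripts by name, of which 1 would have met it. All comparisons of these transcripts below are therefore descriptions of the values that chose them.

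The material was E10.5 forelimbs of mouse embryos. Every embryo carried 1 floxed Rps6 allele. The genotypes were Rps6lox/+ with Trp53+/+ (Rps6 WT, Trp53 WT, called the control here), Prx1Cre with Rps6lox/+ and Trp53+/+ (Rps6 het, Trp53 WT), Rps6lox/+ with Trp53-/- (Rps6 WT, Trp53 null) and Prx1Cre with Rps6lox/+ and Trp53-/- (Rps6 het, Trp53 null). Prx1Cre drives Cre recombinase in limb bud mesenchyme, so the ectoderm, blood and vessels of the same limb are expected to keep both Rps6 copies, while the Trp53 null allele is carried by all cells. Both Rps6 het genotypes carry Prx1Cre and both Rps6 WT genotypes lack it. In every comparison of Rps6 het with Rps6 WT, loss of an Rps6 copy and presence of Cre therefore cannot be told apart. Each genotype had 3 pools, each joining limb material of 2 embryos. From each pool, RNA depleted of ribosomal RNA and ribosome-protected fragments (RPF, the footprints that translating ribosomes leave on an mRNA) were sequenced, giving 24 libraries in 8 groups of 3.

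The product of Rps6 is a structural protein of the ribosome's small subunit. When ribosome assembly is disturbed, free ribosomal proteins can bind Mdm2, the ubiquitin ligase that keeps p53 low, and p53 then accumulates. p53 is a transcription factor that activates genes of cell cycle arrest, cell death, DNA repair and its own feedback, and it is also known to limit protein synthesis through some of its targets. The RNA libraries bear on which transcripts accumulate, and the RPF libraries on whether ribosomes follow.

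The transcripts are identified only by versioned Ensembl transcript IDs. None of the IDs (0 of 21960) matched the gene tables used here, so no gene name, function, sequence, transcript length or promoter is attached to any of the 46, and 2 of their IDs are printed. Reads shared with overlapping genes or near-identical copies could not be examined. For the same reason Rps6, Trp53 and marker genes of mesenchyme, blood, vessels, ectoderm, muscle and nerve could not be looked up in the libraries. In whole limb tissue, more RNA per cell and more cells of a type that holds the RNA cannot be told apart.

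Library totals were 14291854 to 29104669 counts in RNA and 7026056 to 16835045 counts in RPF. The 46 transcripts were covered by a median of 245.5 counts per RNA library and 114 counts per RPF library in the control, and by 555.5 and 222.5 counts in Rps6 het, Trp53 WT. All 46 passed the filter on low counts in both library kinds. Of these, 45 in RNA and 42 in RPF also stood at or above 10 counts per library of median size in at least 3 libraries outside Rps6 het, Trp53 WT. The remaining 1 and 4 passed through the genotype in which they are high.

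Few rows were raised in both library kinds to begin with. Of 9919 rows above the level limits, 80 reached a ratio of 0.7 in RNA and 67 in RPF, and 53 reached it in both. The limits without Trp53 removed 4 of these 53. One of the 4 stayed high without Trp53, with ratios of 1.01 in RNA and 1.66 in RPF. The limit on Trp53 loss removed 2 more, which had the largest ratios of all 53 (5.09 and 4.53 in RNA, 4.82 and 4.48 in RPF). Mirror-image limits, for transcripts lower in Rps6 het with Trp53 intact, were met by 47 rows. The member nearest to the limit had ratios of 1.08 in RNA and 0.70 in RPF, and the next had 0.95 and 0.71. Just outside were rows with 0.85 and 0.70 (0.6958 before rounding) and with 0.81 and 0.69.

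The transcripts are ranked here by the smaller of their RNA and RPF ratios, with 0.5 CPM added to each mean, which lowers the ratios of scarce transcripts most. Without it the transcript at rank 2 had the larger fold difference in both library kinds, as its values show. Rank 1 was ENSMUST00000066610.7. Its RNA level in the 3 control pools was 0.676, 1.26 and 1.52 CPM, and in the 3 Rps6 het, Trp53 WT pools it was 21.2, 19.3 and 23.0 CPM. Without Trp53 the pools held 1.20, 1.05 and 0.665 CPM with Rps6 intact and 0.444, 0.752 and 0.653 CPM in Rps6 het. The Rps6 het, Trp53 WT pools lay far above all others, and the remaining 3 genotypes shared one low range with the lowest values in Rps6 het, Trp53 null. The mean was 1.15 ± 0.432 CPM (SD, n = 3) in the control and 21.2 ± 1.84 CPM in Rps6 het, Trp53 WT, an 18.4-fold difference.

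Footprints on ENSMUST00000066610.7 showed the same division. They were 0.544, 0.336 and 0.891 CPM in the control and 10.9, 14.2 and 15.0 CPM in Rps6 het, Trp53 WT. In Trp53 null they were 0.324, 0.423 and 0.5998 CPM with Rps6 intact and 0.333, 0.302 and 0.745 CPM in Rps6 het. The 3 low genotypes overlapped throughout. The means were 0.590 ± 0.281 CPM in the control and 13.4 ± 2.15 CPM in Rps6 het, Trp53 WT (SD, n = 3), a 22.7-fold difference that rests on 25 and 404 counts over the 3 pools.

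Rank 2 was ENSMUST00000058472.12, which was barely present outside 1 genotype. Its RNA counts were 1, 2 and 2 in the control pools, 111, 96 and 112 in Rps6 het, Trp53 WT, 1, 0 and 0 in Rps6 WT, Trp53 null, and 2, 0 and 0 in Rps6 het, Trp53 null. RPF counts were 30, 18 and 46 in Rps6 het, Trp53 WT and 0 in each of the 9 other pools. So RNA and footprints of this transcript were both found in the same 3 pools. In CPM its RNA mean was 0.0740 ± 0.0279 in the control and 5.13 ± 0.237 in Rps6 het, Trp53 WT (SD, n = 3), and summed counts gave a 70.2-fold difference with a 95% exact binomial interval of 29.8 to 218. The RPF mean was 3.04 ± 0.470 CPM. Summed over the 3 libraries, its 94 footprints were 3.14 CPM, and the count of 0 allows up to 0.0776 CPM over the 3 control libraries together, so footprints were at least 40.4-fold higher. Against the 2 Trp53 null genotypes, where a count of 0 allows up to 0.0838 and 0.0918 CPM, the same summed level gives at least 37.5-fold (Rps6 WT) and 34.2-fold (Rps6 het). The limit for a count of 0 is 3 counts over the group, and the 94 footprints enter these bounds without their own counting error. The interval covers counting error only, and neither it nor the bounds cover differences between pools.

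**Figure D1:**
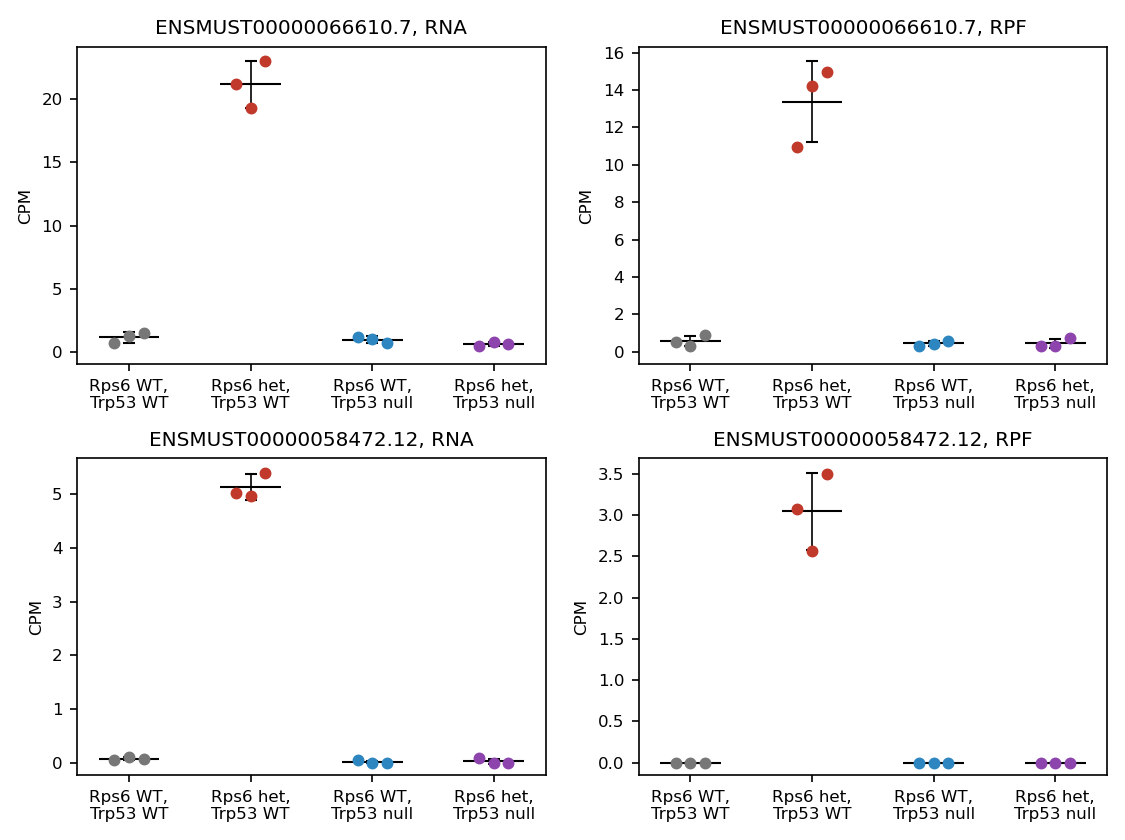
Level in CPM (linear axes) of ENSMUST00000066610.7 (top) and ENSMUST00000058472.12 (bottom) in RNA (left) and RPF (right) libraries. Each point is 1 of the 3 pools of a genotype, the line is the mean and the bar the SD. In each panel the 3 Rps6 het, Trp53 WT pools stand apart from the 9 other pools, and the RPF level of the lower transcript is 0 in all 9.

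Several of the following ranks were well expressed already in the control. The transcript at rank 3 held 11.7, 12.2 and 13.9 CPM of RNA in the control pools and 74.5, 71.7 and 73.0 CPM in Rps6 het, Trp53 WT. Its Trp53 null pools held 11.7, 12.6 and 11.1 CPM with Rps6 intact and 11.1, 10.8 and 10.2 CPM in Rps6 het, so that all 9 other pools lay within 10.2 to 13.9 CPM. Its footprint means were 8.77 ± 1.54 CPM in the control and 54.0 ± 4.54 CPM in Rps6 het, Trp53 WT (SD, n = 3). The fold difference of means was 5.79 in RNA and 6.15 in RPF.

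The transcript at rank 5 had the highest RNA level of the first 12 in Rps6 het, Trp53 WT. In the other genotypes the transcript at rank 12 was higher, with 55.8 ± 2.42 CPM in the control (SD, n = 3). The transcript at rank 5 held 33.3, 29.8 and 28.6 CPM in the control and 181, 142 and 180 CPM in Rps6 het, Trp53 WT. The pool with 142 CPM was lower than the others of that genotype. Without Trp53 it held 32.8, 27.2 and 29.9 CPM with Rps6 intact and 36.1, 33.3 and 27.4 CPM in Rps6 het, and these groups overlapped. Footprint means were 7.90 ± 0.755 CPM in the control and 41.2 ± 3.80 CPM in Rps6 het, Trp53 WT.

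The most abundant of all 46 was at rank 37, near the lower end of the response. Its RNA level was 210, 214 and 212 CPM in the control and 354, 367 and 355 CPM in Rps6 het, Trp53 WT, and its RPF level was 220, 231 and 234 CPM against 371, 394 and 389 CPM. In Trp53 null its RNA means were 218 ± 3.30 CPM with Rps6 intact and 219.7 ± 11.2 CPM in Rps6 het (SD, n = 3). Although the difference was under 2-fold, no pool of Rps6 het, Trp53 WT came near a pool of another genotype. This transcript made up 14.9% of the summed RNA level of the 46 in Rps6 het, Trp53 WT and 19.1% of their summed RPF level, and the 5 most abundant of each library kind together made up 43.4% and 50.5%.

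Over the 46 transcripts the response ranged from under 2-fold to the very large changes at ranks 1 and 2. The fold difference of mean RNA CPM between Rps6 het and Rps6 WT, with Trp53 intact, had a median of 2.21, quartiles of 1.82 and 3.19, and a lowest value of 1.64. In RPF it had a median of 2.25 over the 45 transcripts with footprints in the control, and a lowest value of 1.64. Both log2 ratios were 2 or more for 7 transcripts, 1 or more for 25, and under 1 for 14. The median log2 ratio was 1.10 in RNA and 1.09 in RPF, against −0.03 over the 14411 transcripts tested in RNA and −0.06 over the 12147 tested in RPF. Since the rule set these ratios, the contrast with all transcripts is one of selection.

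Higher ratios went with lower control levels. Across the 46 transcripts the log2 control RNA level and the RNA ratio had a Pearson's r of −0.49 (Spearman's rho −0.42), and the corresponding RPF values were −0.53 and −0.48. These are descriptions over 46 transcripts measured in the same pools, the control level enters both quantities, and the level limits were set on the high genotype, so transcripts of low control level could enter only with a large ratio.

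**Figure D2:**
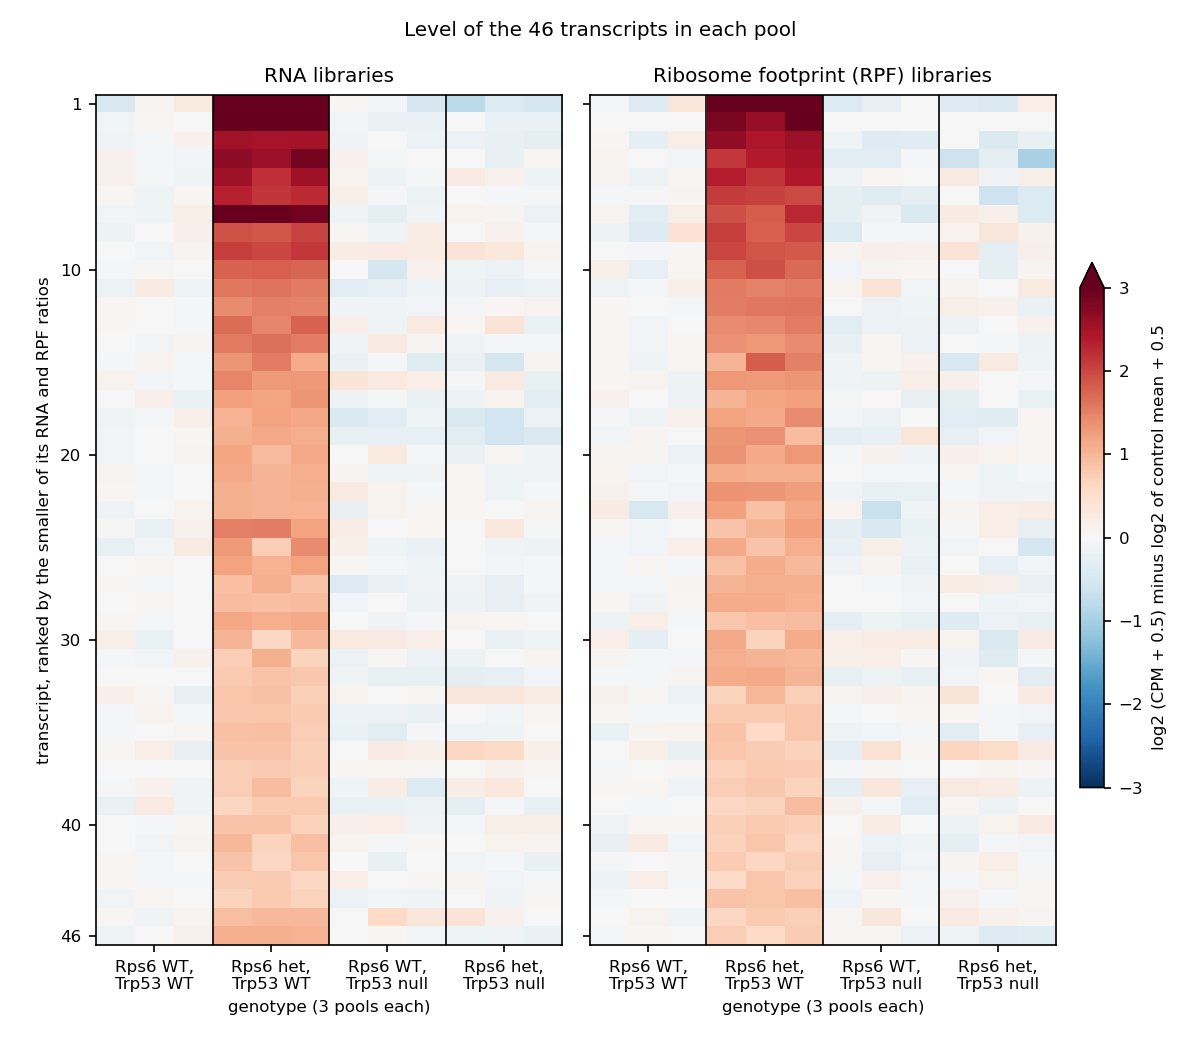
Level of each of the 46 transcripts (rows, by rank) in each of the 12 pools (columns, 3 per genotype) in RNA (left) and RPF (right), as log2 (CPM + 0.5) minus the same of the control mean, with colour saturated at 3. The 3 columns of Rps6 het, Trp53 WT are above 0 (red) in every row of both panels, from 0.58 upward. Cells of the other genotypes lie on either side of 0, from −0.97 to 0.64, so some are coloured as strongly as the palest red ones.

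The pools of a genotype behaved alike. In RNA the median over the 46 transcripts of the log2 ratio of a pool to the control mean was 1.12, 1.07 and 1.10 in the 3 Rps6 het, Trp53 WT pools, and in RPF it was 1.12, 1.11 and 1.10. All 46 transcripts lay above the control mean in each of these 6 libraries. In the 12 Trp53 null libraries the medians ran from −0.08 to 0.01. The coefficient of variation between pools had a median of 5.71% to 8.71% over the 46 transcripts in the RNA groups and 6.89% to 11.3% in the RPF groups, and over all transcripts tested it was 5.44% to 7.16% and 5.79% to 6.75%.

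For all 46 transcripts every Rps6 het, Trp53 WT pool was above every control pool in RNA, which was so for 16.5% of all transcripts tested, and in RPF, where the background was 13.0%. For all 46 it was also above all 9 other pools, against 7.9% of transcripts in RNA and 6.31% in RPF. All 46 were called higher by edgeR's quasi-likelihood test at an adjusted p under 0.05 in RNA (13.1% of all tested were called higher) and in RPF (13.2%). DESeq2 called 46 in RNA and 45 in RPF, giving no adjusted p for the remaining 1. The rule used this contrast, so nothing is read from these counts.

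Without Trp53 the differences between Rps6 het and Rps6 WT were small and had no common direction. The rule allowed log2 ratios up to 0.4 either way, and the 46 spread from −0.40 to 0.33 in RNA and from −0.38 to 0.39 in RPF, with medians of 0.00 (0.0034) and 0.02. Both ratios were above 0 for 15 transcripts, both below 0 for 11, and of opposite sign for 19. For 31 transcripts both lay within 0.2 of 0. Every Rps6 het pool was above every Rps6 WT pool for 4 transcripts in RNA (8.94% of all tested) and 2 in RPF (7.29%), and below for 3 (5.73%) and 1 (9.29%).

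None of the 46 was called in this comparison. In RNA edgeR called 0 of the 46 (0.0694% of all tested), with 4 higher and 3 lower at an unadjusted p under 0.05 (5.73% and 5.54% of all tested), and DESeq2 called 0, giving no adjusted p for 33. In RPF edgeR called 0 (0.906% of all tested), with 3 higher and 2 lower at an unadjusted p under 0.05 (6.36% and 5.6%), and DESeq2 called 0, giving no adjusted p for 39. In RPF the transcript nearest to a difference, by its fitted difference over its SE, was at rank 36. Its footprints were 25.8, 43.2 and 32.4 CPM in Rps6 WT, Trp53 null and 49.4, 46.1 and 37.3 CPM in Rps6 het, Trp53 null, so the groups overlapped. In RNA the same pools held 18.3, 22.3 and 20.7 CPM against 29.0, 27.8 and 20.9 CPM, and 1 Rps6 het pool lay inside the Rps6 WT range. Without replicate 2 of Rps6 WT, Trp53 null its RPF difference was called. In RNA the nearest was at rank 30, with a fitted difference of −0.39 ± 0.128 (SE). Its pools held 8.04 to 8.60 CPM in Rps6 WT, Trp53 null and 6.02 to 6.98 CPM in Rps6 het, Trp53 null, without overlap. RNA pools were also divided at ranks 33 and 34, where Rps6 het was higher. These are among the divided groups counted above.

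**Figure D3:**
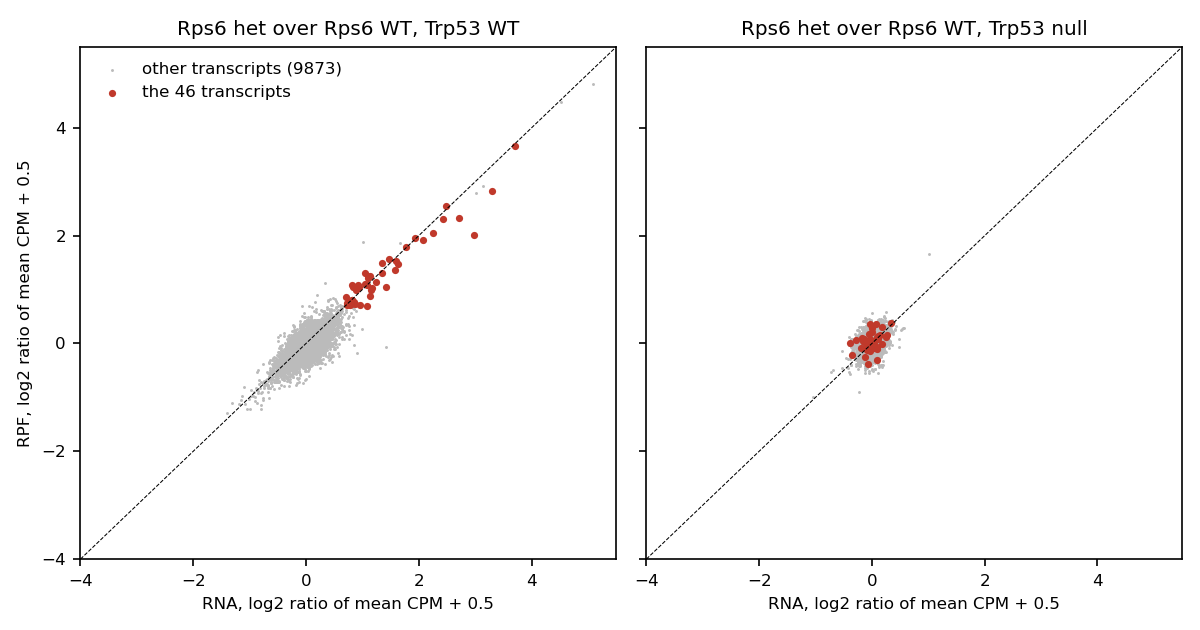
Log2 ratios of Rps6 het over Rps6 WT in RNA (x axis) and RPF (y axis) with Trp53 intact (left) and in Trp53 null (right), each from group means of CPM with 0.5 added. Red points are the 46 transcripts, grey points the 9873 other rows above the level limits, and the dashed line marks equal ratios. The red points lie along the line at 0.7 and above on the left and within 0.4 of 0 on the right.

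The difference between both changes, tested as the interaction of Rps6 and Trp53, was called for 43 of the 46 in RNA, where 5.07% of all transcripts were called in this direction, and for 39 in RPF, where it was 3.94%. DESeq2 called 45 in RNA and 36 in RPF, where it gave no adjusted p for 6. Both parts of this difference were used by the rule. In RNA the 3 others were at ranks 2, 36 and 38. At rank 2 only 3 counts were found in Trp53 null, and the ratios without Trp53 were 0.33 and 0.27 at ranks 36 and 38. In RPF 7 were not called, and 5 of these had control means under 3 CPM. A lack of difference is not shown for any of the 7.

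Loss of Trp53 with Rps6 intact left most of the 46 near the control, which the rule demanded on the lower side of RNA only. The RNA ratio of Rps6 WT, Trp53 null to the control had a median of −0.05 and ran up to 0.33, with 1 transcript above 0.3. The RPF ratio had a median of −0.04, against 0.00 (−0.0042) over all tested. It was below 0 for 33 transcripts and above 0 for 12, where 6371 of all tested were below 0 and 5775 above. The lowest RPF ratio was −0.31, at rank 24, and 2 transcripts were below −0.3. Footprints at rank 24 were 2.46 to 2.80 CPM in the control pools and 1.78 to 2.23 CPM in those of Rps6 WT, Trp53 null, without overlap. The other was at rank 6, with 13.5, 13.2 and 14.7 CPM of footprints in the control. It held 11.4, 10.6 and 11.3 CPM in Rps6 WT, Trp53 null, and these groups did not overlap either. Its RNA means of 14.3 ± 1.05 and 14.2 ± 1.64 CPM (SD, n = 3) did overlap. Its fitted RPF difference was −0.32 ± 0.11 (SE) and was not called by edgeR. These 2 transcripts were chosen after their values were seen, and the share of all transcripts with groups so divided was not counted. With one of its ratios limited by the rule, this contrast is a description too.

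Rps6 het, Trp53 null compared with the control gives the state of the 46 when both lesions are present. The ratio had a median of −0.05 in RNA and −0.01 in RPF, and lay within 0.3 of 0 for 42 and 43 of the 46. Except at rank 36, those outside this range were below the control. In RNA they were at ranks 1, 18 and 19 (−0.57, −0.38 and −0.44) and in RPF at ranks 4 and 6 (−0.61 and −0.31). Pools did not overlap with the control at ranks 18 and 19 in RNA and at rank 4 in RPF. None of these differences was called, and the share of all transcripts with groups so divided was not counted. The transcript at rank 36 stayed above the control, with RPF means of 31.6 ± 4.29 CPM in the control and 44.3 ± 6.26 CPM in Rps6 het, Trp53 null (SD, n = 3) and pools that did not overlap. It was the 1 member that edgeR called higher in RPF in this comparison (fitted log2 difference 0.53 ± 0.12, SE), where 1.04% of all tested were called higher. In RNA its fitted difference was 0.50 ± 0.13 (SE), its pools overlapped and it was not called. Between the Rps6 het genotypes, those without Trp53 were lower for all 46 transcripts in both library kinds, by a median log2 ratio of −1.19 in RNA and −1.18 in RPF, against 0.02 and 0.05 over all tested. edgeR called 45 of the 46 lower in RNA (7.11% of all tested) and 45 in RPF (8.13%), and the exception in both was again rank 36, with fitted differences of −0.37 ± 0.12 and −0.32 ± 0.12 (SE). These comparisons share their samples with the ones above and add no independent evidence.

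Summed over the set, the difference was more than 2-fold. Together the 46 transcripts took up 1067 ± 5.49 CPM of the control RNA (SD, n = 3) and 2411 ± 15.4 CPM in Rps6 het, Trp53 WT. In Trp53 null they took up 1025 ± 1.52 CPM with Rps6 intact and 1042 ± 1.53 CPM in Rps6 het. In RPF the 4 values were 960 ± 1.87, 2010 ± 19.9, 938 ± 31.0 and 965 ± 23.95 CPM in the same order. The pools of the 3 low genotypes overlapped in RPF, within 917 to 993 CPM. In RNA they did not: the control pools held 1061 to 1071 CPM, those of Rps6 het, Trp53 null 1040 to 1043 CPM and those of Rps6 WT, Trp53 null 1023 to 1026 CPM. These sums use library totals without edgeR's scaling factors (TMM). Those factors ran from 0.984 to 1.019 over the RNA libraries, a spread of similar size to these gaps. Nothing is therefore read from the order of the 3 low genotypes in RNA.

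**Figure D4:**
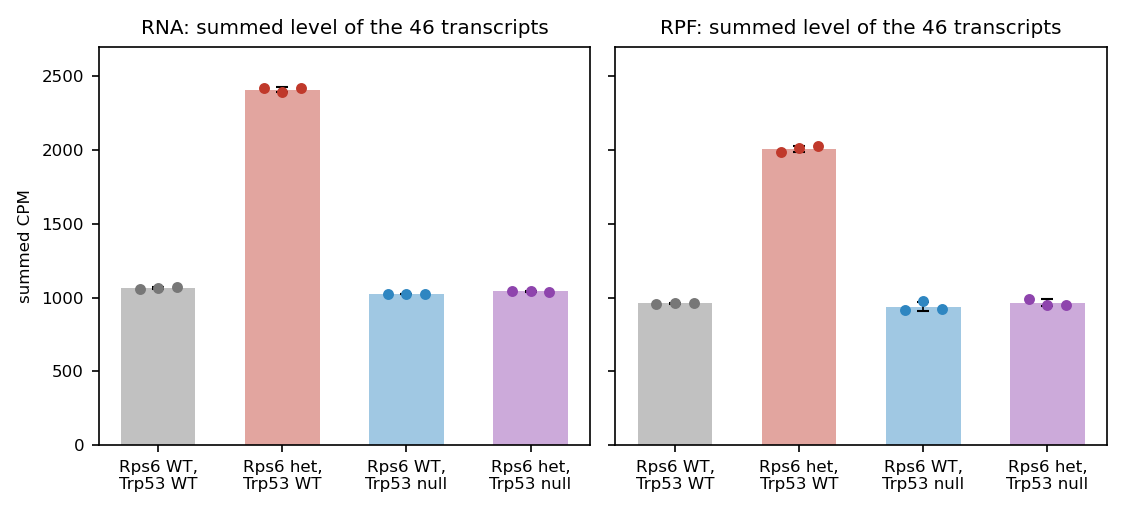
Summed CPM of the 46 transcripts by genotype in RNA (left) and RPF (right). Bars are means, points the 3 pools and whiskers the SD, and the axis starts at 0. Rps6 het, Trp53 WT stands at 2411 CPM in RNA and 2010 CPM in RPF, and the other genotypes at 938 to 1067 CPM.

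RNA and footprints changed to nearly the same extent. The RPF ratio was within 0.3 of the RNA ratio for 41 of the 46 transcripts, larger for 18 and smaller for 28, with a median difference of −0.04 (RPF minus RNA, log2). Across the 46 these ratios had a Pearson's r of 0.96 and a Spearman's rho of 0.88 with Trp53 intact, and of 0.35 and 0.26 in Trp53 null. These describe 46 transcripts measured in the same pools, and the limits of the rule shape both ranges. Footprints per RNA read, as the ratio of mean RPF CPM to mean RNA CPM, had a median of 0.969 in the control and 0.852 in Rps6 het, Trp53 WT, with 0.865 and 0.850 in the Trp53 null genotypes. Footprints were counted over coding sequence and RNA over entire transcripts, so these ratios compare genotypes within a transcript and not transcripts with each other. The medians over transcripts do not give the change within a transcript, for which the median difference was the −0.04 above.

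Translational efficiency, the RPF change less the RNA change fitted over all 24 libraries, had a median change of 0.00 (0.003) over the 46, against −0.01 over 14080 transcripts tested. It was above 0 for 23 and below 0 for 23. None was called by edgeR (0 of 46, where 1.17% of all tested were called), 4 were higher and 2 lower at an unadjusted p under 0.05 (3.88% and 6.14% of all tested), and DESeq2 called 0, giving no adjusted p for 27. With a term for each pool in the fit, so that both libraries of one lysate are compared with each other (the pool block), 1 of the 46 was called, with a lower efficiency, where 1.95% of all tested were called lower. It was the transcript at rank 46, the one nearest to the limit of the rule. Its RNA was 20.0, 21.5 and 24.1 CPM in the control and 47.3, 46.7 and 45.9 CPM in Rps6 het, Trp53 WT, while its footprints were 18.6, 19.6 and 19.5 against 32.4, 29.3 and 32.9 CPM. The fitted change in efficiency was −0.34 ± 0.105 (SE) without the block and −0.34 ± 0.094 with it. The rule set a lower limit on both changes that efficiency compares, so the small number of calls is not read as a result about the 46.

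With 0.5 CPM added to each mean, the largest gaps between RNA and footprint ratios were found on the RNA side, at ranks 7, 2 and 4, with RPF minus RNA differences of −0.96, −0.47 and −0.39. At rank 7 the RNA mean went from 3.51 ± 0.485 to 31.2 ± 1.82 CPM and the RPF mean from 0.408 ± 0.163 to 3.18 ± 0.618 CPM (SD, n = 3). Those means differ 8.9-fold in RNA and 7.8-fold in RPF before 0.5 CPM is added, and the fitted change in efficiency was −0.24 ± 0.398 (SE). At rank 2, with 0 footprints in the control, the gap is set by the constant, and the fitted change was 2.69 ± 1.43 (SE), in the other direction. At rank 4 it was −0.41 ± 0.198 (SE), with RNA means of 2.80 and 21.3 CPM and RPF means of 3.59 and 20.1 CPM. On the footprint side the largest gaps with the constant were 0.27, 0.26 and 0.20 at ranks 32, 22 and 31. At rank 32 the RNA mean went from 16.9 ± 0.0200 to 30.3 ± 0.710 CPM and the RPF mean from 9.31 ± 0.536 to 20.4 ± 0.965 CPM, with a fitted change in efficiency of 0.30 ± 0.111 (SE). Without the constant the transcript at rank 15 had a wider gap than these, 2.74-fold in RNA and 4.17-fold in RPF. Its RPF means were 0.657 ± 0.0850 and 2.74 ± 0.862 CPM (SD, n = 3), and the fitted change was 0.55 ± 0.36 (SE).

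How firmly a transcript belonged to the 46 varied. When each of the 12 pools was left out in turn and the rule applied again, 23 of the 46 met it every time, and the other 23 met it in at least 6 of the 12 sets. Over these sets the lowest ratio of any of the 46 with Trp53 intact was 0.64 in RNA and 0.63 in RPF, and the largest ratio without Trp53 was 0.60 in size. The fewest rows, 37, of which 35 were among the 46, met the rule without replicate 1 of the control.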

How the data were processed

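The authors deposited one table of raw whole-number counts per Ensembl transcript for 24 libraries, RPF over the coding sequence and RNA over the transcript by the table's name. The submitters' processing notes name Bowtie2, UMI-tools, GRCm38 and mm10 without roles. The counting tool, annotation and filters are not given in the sources used here. All 24 columns were matched to samples by library kind, genotype and replicate number.

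CPM was computed on library totals, with floors of 3 counts (0.103 to 0.21 CPM in RNA, 0.178 to 0.427 in RPF, counting error only). Tests used edgeR 4.0.16 in R 4.3.3 (quasi-likelihood F test, filterByExpr with a minimum count of 10 and total of 15, TMM within library kind, all genotypes in one fit), with Benjamini-Hochberg adjustment over all transcripts and calls at an adjusted p under 0.05. SEs came from the F statistic. Contrasts of Rps6 het, Trp53 null with the control and with Rps6 het, Trp53 WT were taken from the same fits beside the planned tests. So was the contrast of Rps6 WT, Trp53 null with the control. The code was tested on simulated counts. Replicate pairs differed beyond sampling noise (chi-square per degree of freedom at least 1.82).

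RPF and RNA libraries come from parts of the same lysates, and the deviations of same-numbered ones correlated in all 12 pools (r 0.114 to 0.378 across transcripts). Pools with one number but different genotypes hold different embryos and were not paired (r −0.301 to 0.3).

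The members and lists were chosen with earlier results of these data known. The naming rule covered all members on fixed gene lists, the first 12 ranks, the 3 largest gaps either way between RPF and RNA ratios, and the neighbours of the limit. Without gene names the lists were not used, 2 IDs are printed, and other members appear by rank. Those at ranks 36, 37, 15, 6, 18, 19, 24, 30, 33 and 34 were chosen after their values were seen. Alternatives were DESeq2 1.42.0, its size factors within edgeR, no filter, replicate and pool blocks, other limits of the rule and leaving out each pool.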

Additional observations from a re-analysis of the deposited data

Results flagged for a closer look

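The Rps6 change with Trp53 intact exceeded that without it, by the test of their interaction, for 43 of the 46 transcripts in RNA and for 39 in RPF. The transcripts were selected for this difference, so these counts are descriptions.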

How the results depend on the processing

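The number of rows meeting the rule was 34 to 61 over the planned settings: 42 with 1 CPM added, 41 with 0.1 CPM added, 49 with TMM-scaled totals, 61 and 34 with limits of 0.6 and 0.8, 39 with a Trp53 null limit of 0.3, and 37 to 47 with 1 pool left out. Of the 46, 45 met it with TMM-scaled totals. All 46 stayed called in RNA and in RPF in Trp53 WT when any pool was left out, and 43 to 45 (RNA) and 39 to 41 (RPF) for the interaction. DESeq2 called 45 in RPF in Trp53 WT, and 45 (RNA) and 36 (RPF) for the interaction, with no adjusted p for 1, 0 and 6. In RPF in Trp53 null, 1 of the 46 was called in place of 0 with the replicate block, with no filter, and without replicate 2 of Rps6 WT, Trp53 null, so that leaving out a pool gave 0 to 1. The pool block gave 1 TE call among the 46.

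Over all transcripts, calls for Rps6 in Trp53 null moved from 10 in RNA to 28 without a filter and 47 with DESeq2, and from 110 in RPF to 285 without a filter and 168 with the replicate block. TE calls in Trp53 WT moved from 165 to 282 without a filter, 248 with the replicate block, 393 with the pool block and 254 with DESeq2. Leaving out 1 pool gave 2211 to 3963 RNA calls for Rps6 in Trp53 WT, 4 to 47 RNA calls and 60 to 130 RPF calls in Trp53 null, 641 to 1806 RNA and 513 to 925 RPF calls for the interaction, and 58 to 245 TE calls. Single pools whose omission moved a count by over 1.5 times were, for RNA in Trp53 WT, control 3 and Rps6 het, Trp53 WT 1 (2211 and 2292). For RNA in Trp53 null they were control 2 and 3, Rps6 het, Trp53 null 1 and 3, and Rps6 WT, Trp53 null 2 (4 to 6 calls), with Rps6 het, Trp53 null 2 giving 47. For RPF in Trp53 null they were Rps6 het, Trp53 null 3 and Rps6 WT, Trp53 null 1 and 2 (60 to 72). For the RNA interaction they were control 3, Rps6 het, Trp53 WT 1 and 3, Rps6 WT, Trp53 null 1 and 2, and Rps6 het, Trp53 null 3 (641 to 814). For the RPF interaction they were control 3, Rps6 het, Trp53 WT 2, Rps6 het, Trp53 null 3 and Rps6 WT, Trp53 null 2 (513 to 557). For TE they were control 1, 2 and 3 and Rps6 het, Trp53 WT 1 and 3 (58 to 108). The cause was not tested. No other call count moved by over 1.5 times, with or without the replicate block. Same-numbered pools of different genotypes hold different embryos. The column names also hold BC numbers, and no BC number recurs among the libraries of one replicate number. The labels do not state what these numbers mean or what same-numbered pools share, and the BC numbers were not used. Deviations of same-numbered pools of different genotypes had r of −0.301 to 0.3 in RNA and −0.118 to 0.053 in RPF. With the replicate block the RNA interaction had 2000 calls in place of 1376.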
